A study of Mus musculus with 6 samples.

Results

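Plat, Plau, Plaur and Serpine2 encode the activators of plasminogen, the receptor of one of them and a serpin that blocks both, and they were taken as the rows of the expression reports that carry these 4 symbols, out of 26458 symbols in all. RNA came from Thy1+HE- cells sorted from hearts of C57BL/6 mice on day 7 after surgery. One group had a sham operation and the other transaortic constriction (TAC), which narrows the aorta and raises the pressure against which the left ventricle works. There were 3 libraries per group, and the labels name no transgene or drug and give neither the age of the mice nor what HE stands for. The labels do not say whether libraries came from separate animals, so the p-values reflect how much these samples differ among themselves, and some of that may be technical.

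Plasminogen is made mainly by the liver and circulates as an inactive precursor. Tissue-type plasminogen activator (Plat) and urokinase (Plau) cut it to plasmin, a protease that dissolves fibrin, loosens other matrix proteins and helps to release or activate growth factors. Urokinase acts at the cell surface when held by its receptor (Plaur), and the serpin protease nexin 1 (Serpine2) traps both activators, plasmin and thrombin in inactive complexes that are then taken up by cells.

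The sequences below show the sites on which this enzyme and inhibitor chemistry turns. They are 63-base stretches of the coding sequence of the longest coding transcript of each gene in GENCODE M21 (build GRCm38), 5′ to 3′. Capitals mark the codon of the active-site serine in Plat and Plau, and the codons of the arginine and serine between which proteases cut the exposed loop of Serpine2.
Plat: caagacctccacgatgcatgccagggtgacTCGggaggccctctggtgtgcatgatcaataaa
Plau: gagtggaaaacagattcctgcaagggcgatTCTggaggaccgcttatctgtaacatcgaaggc
Serpine2: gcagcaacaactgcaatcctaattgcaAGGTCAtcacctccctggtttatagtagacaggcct
The stretch of Plat lies on the + strand of chromosome 8 across exons 13 and 14 of 14 (22780566 to 22781986), and that of Plau on the + strand of chromosome 14 across exons 10 and 11 of 11 (20841071 to 20842312). That of Serpine2 lies on the - strand of chromosome 1 across exons 7 and 8 of 9 (79796857 to 79799477). Plat and Plau matched at 33 of the 63 positions (52.4%), and the longest run of bases shared by their whole coding sequences was 14, against reads of 50 bases. No 50-base window of the 4 transcripts occurred exactly in a transcript of another gene on either strand, and no other annotated gene overlapped any of the 4, so this annotation gives no source of exact shared or antisense reads.

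After TAC, Serpine2 rose 1.48-fold and was the only member past the threshold, an adjusted p under 0.05 over all genes. Plat and Plaur, the tissue-type activator and the urokinase receptor, did not pass, and Plau, urokinase, was 0.615 times sham without passing. All 4 members passed the filter on low counts. That 1 of 4 was called stands beside 18.7% of the 12612 genes tested (8.28% higher and 10.4% lower in TAC). Genes with no overlap between the groups made up 36.2% of those tested, and among the members this held for Serpine2 alone.

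Serpine2 (chromosome 1, 79794197 to 79861180, - strand) had 583, 608 and 640 reads in the sham libraries (replicates 1 to 3) and 1587, 1991 and 1384 reads after TAC. As CPM, which are counts scaled to a common library sum after normalization by the trimmed mean of M-values (TMM), these were 292, 315 and 317 in sham and 487, 464 and 416 in TAC. Every TAC library lay above every sham library, and the sham libraries were closely grouped. The means were 308 ± 14.1 CPM in sham and 456 ± 36.0 CPM in TAC (SD, n = 3 each). The log2 fold change was 0.56 ± 0.13 (SE), with a 95% interval from 0.29 to 0.84 and an adjusted p of 0.00640 by edgeR's quasi-likelihood test. It kept its direction and its call in all 18 alternative analyses, among them each with 1 library left out, with log2 fold changes from 0.52 to 0.63. By size of change it ranked 3230th of the 12612 tested genes.

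Plat (chromosome 8, 22757727 to 22782844, + strand) did not separate the groups. Sham replicates 1, 2 and 3 had 189.8, 249.7 and 235 CPM and TAC replicates 1, 2 and 3 had 199, 186 and 249.6 CPM. The groups overlapped over nearly their whole range, with the highest value of each within 1 CPM of the other. The means were 225 ± 31.2 CPM and 211 ± 33.7 CPM (SD, n = 3 each). The log2 fold change was -0.09 ± 0.15 (SE), with a 95% interval from -0.41 to 0.23 and an edgeR adjusted p of 0.727. With 379 to 830 reads per library Plat was well covered, and the interval leaves out a change of 1 on the log2 scale in either direction.

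Plau (chromosome 14, 20836660 to 20843385, + strand) was the lowest of the 4, with 29 to 52 reads per library. It had 25.5, 20.7 and 14.4 CPM in sham replicates 1, 2 and 3 and 10.1, 12.1 and 15.0 CPM in TAC replicates 1, 2 and 3. Sham replicates 1 and 2 lay above every TAC library, while sham replicate 3 lay between TAC replicates 2 and 3. The means were 20.2 ± 5.59 CPM in sham and 12.4 ± 2.47 CPM in TAC (SD, n = 3 each). The log2 fold change was -0.70 ± 0.26 (SE), with an unadjusted p of 0.0147 and an adjusted p of 0.0682 by edgeR. It passed without sham replicate 3 (log2 fold change -0.90, adjusted p of 0.0318) and without TAC replicate 3 (-0.85 and 0.0460), which are the libraries of each group nearest to the other group. Across the alternatives the log2 fold change stayed below 0 and the adjusted p ranged from 0.0318 to 0.265.

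Plaur (chromosome 7, 24462484 to 24475968, + strand) varied more within the groups than between them. It had 20.5, 35.7 and 17.4 CPM in sham replicates 1, 2 and 3 and 17.5, 13.0 and 47.5 CPM in TAC replicates 1, 2 and 3. TAC replicate 3 and sham replicate 2 were high, and the other 4 libraries lay between 13.0 and 20.5 CPM. The means were 24.5 ± 9.83 and 26.0 ± 18.8 CPM (SD, n = 3 each), and the log2 difference was 0.07 ± 0.39 (SE; adjusted p of 0.924 by edgeR). The 95% interval of the log2 fold change ran from -0.75 to 0.89, so a change in either direction within these bounds is not excluded. Leaving out TAC replicate 3 gave -0.69 (adjusted p of 0.113), and leaving out sham replicate 2 gave 0.43 (adjusted p of 0.578).

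**Figure D1:**
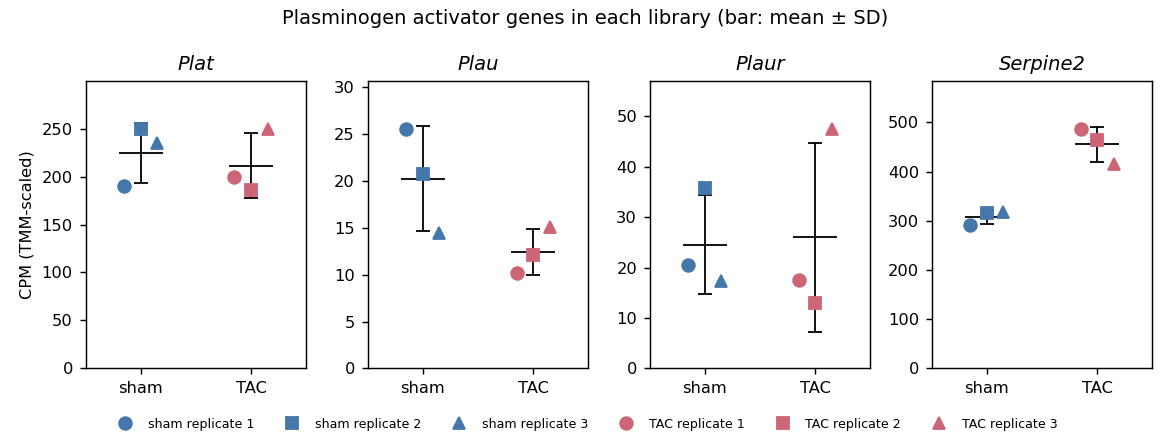
CPM (y axis, linear, TMM-scaled) of the 4 genes in the 3 sham (blue) and 3 TAC (red) libraries, with symbols for the replicate number and black bars for mean ± SD. Serpine2 lies between 292 and 317 CPM in sham and between 416 and 487 CPM in TAC, while the groups overlap for Plat, Plau and Plaur.

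The highest TAC library of Plaur was 3.64 times its lowest, the widest range among the members. The chi-square per degree of freedom of Plaur against Poisson counts was 49.9 in TAC and 7.75 in sham, where 1 would be counting noise alone. It was 19.4 and 8.56 for Plat, 9.45 and 1.29 for Serpine2 and 1.63 and 3.11 for Plau, in TAC and sham in turn. Macrophages and monocytes are known to carry Plaur, and their 13 matched markers summed to 66.6, 16.1 and 16.9 CPM in sham replicates 1, 2 and 3 and to 82.5, 82.0 and 226 CPM in TAC replicates 1, 2 and 3. TAC replicate 3 was the highest in both Plaur and this sum, but sham replicate 2, the second highest for Plaur, had the lowest sum. Of 7 tested macrophage markers 4 rose, and 1 did without TAC replicate 3. Markers that the filter on low counts left out of that smaller fit count there as not risen. Ptprc, the pan-leukocyte antigen CD45, had no read in any sham library and 7, 9 and 17 reads in TAC replicates 1, 2 and 3. The part of these cells in the values of Plaur was not tested. In sorted bulk cells, more cells of a type and more RNA per cell cannot be told apart.

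Of the 4 members, only Serpine2 and Plaur had a RefSeq promoter window that could be matched, and both windows are shown for that reason. Each is the 250 bases before the transcription start in GRCm38.p6, 5′ to 3′ on the gene's strand, and capitals mark GC boxes (GGGCGG) in Serpine2 and the AP-1 motif (TGANTCA) in Plaur, searched on both strands.
Serpine2: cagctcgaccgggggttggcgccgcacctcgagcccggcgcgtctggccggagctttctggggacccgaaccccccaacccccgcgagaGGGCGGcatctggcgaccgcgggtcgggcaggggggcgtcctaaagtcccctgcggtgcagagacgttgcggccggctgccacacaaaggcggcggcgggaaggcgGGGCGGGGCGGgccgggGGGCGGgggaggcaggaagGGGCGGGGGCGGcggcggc
Plaur: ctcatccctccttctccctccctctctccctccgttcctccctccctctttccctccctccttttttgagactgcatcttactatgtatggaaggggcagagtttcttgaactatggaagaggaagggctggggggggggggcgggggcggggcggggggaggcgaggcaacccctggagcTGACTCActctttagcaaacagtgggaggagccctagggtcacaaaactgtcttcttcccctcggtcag
The window of Serpine2 is chr1:79858666-79858915 (- strand) and that of Plaur is chr7:24462233-24462482 (+ strand). The window of Serpine2 lies inside the gene as GENCODE gives it (79794197 to 79861180), a span over all its transcripts. Starts of single transcripts were not compared between the 2 annotations. Serpine2 held 6 GC boxes, some of which share bases, and Plaur 3. At least 1 GC box was found in 32.7% of 32851 promoter windows. The AP-1 motif was found once in Plaur and not in Serpine2, and it was found in 6.75% of the windows. The window of Serpine2 was 78.8% G and C and that of Plaur 59.6%, beside a median of 52.4% over the windows. A match of letters is a description, and no factor's binding was measured.

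Levels of different genes were compared per length, in the deposited RPKM. These divide reads by row length and by a total slightly below the library's reads on gene rows, for a reason not given. In sham the order was Serpine2 at 144 ± 9.38, Plat at 90.4 ± 14.3, Plaur at 17.7 ± 7.40 and Plau at 8.83 ± 2.32 RPKM (SD, n = 3). In TAC it was the same, at 212 ± 15.4, 84.6 ± 13.5, 18.6 ± 13.5 and 5.43 ± 1.15 RPKM. Neighbours in this order did not overlap in RPKM between libraries of a group. Serpine2 was above 95.3% of the tested genes in sham and 96.9% in TAC, and Plat above 92.2% and 91.2%. Plau was above 47.4% in sham and 33.3% in TAC.

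The inhibitor's mRNA was set against the sum of the activators' in each library, per length and with TMM scaling, as a description with no test. The ratio of Serpine2 to Plat plus Plau was 1.56, 1.35 and 1.48 in sham replicates 1, 2 and 3. After TAC it was 2.70, 2.71 and 1.82 in the same order. Every TAC library lay above every sham library, TAC replicate 3 by the least. The means were 1.46 ± 0.108 and 2.41 ± 0.510 (SD, n = 3 each). TAC replicate 3 had both the lowest Serpine2 and the highest Plat of its group. Most of the activators' mRNA was Plat. The share of Plau in their sum was 12.8%, 8.29% and 6.26% in sham replicates 1, 2 and 3. After TAC it was 5.25%, 6.63% and 6.16% in the same order, so the groups overlapped in this share.

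**Figure D2:**
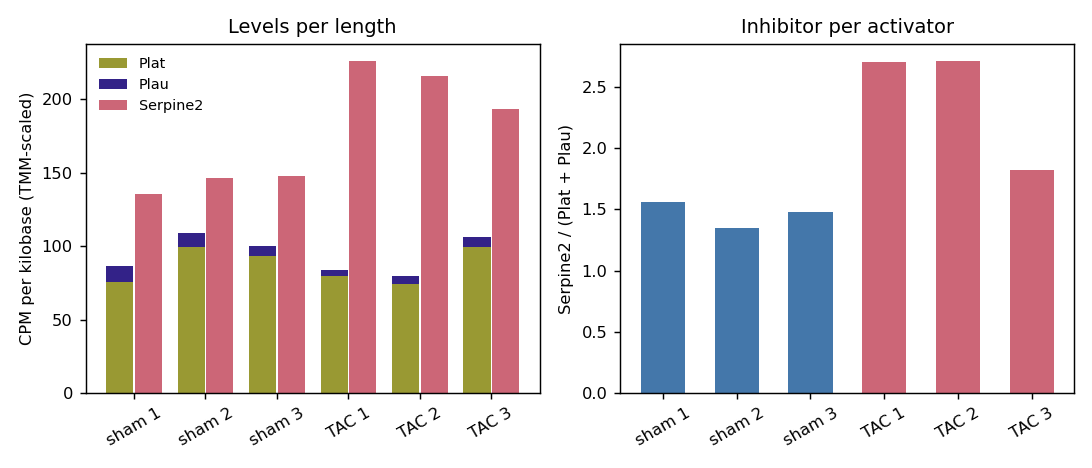
Left, levels per length (CPM per kilobase, TMM-scaled) in each library, with Plat (olive) and Plau (dark blue) stacked beside Serpine2 (red). Right, the ratio of Serpine2 to Plat plus Plau, with sham in blue and TAC in red: it lies between 1.35 and 1.56 in sham and between 1.82 and 2.71 in TAC.

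The closest patterns over the 6 libraries, by Pearson r of log2 CPM with a prior count of 2 among 12062 genes, are given as a description. They follow the difference between the groups as well as the spread within them. Serpine2 was most like Tnfrsf22 (r = 0.998), Snx7 (0.997) and Creb3l2 (0.995), and 151 genes had an r above 0.95 with it. Plau was most like LOC100039223 (0.993), Pcna (0.993) and Zfp59 (0.989). Plat was most like Tmem16h (0.986), LOC668500 (0.983) and Gcdh (0.978), and Plaur like LOC668271 (0.987), LOC665245 (0.984) and 3230401D17Rik (0.977). For Plat, Plau and Plaur only 18, 26 and 17 genes had an r above 0.95. Among 12062 genes over 6 libraries, some r this high can arise by chance, and how many was not tested.

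Around the members, 4 lists of partner genes moved in both directions. Of 58 genes listed, 57 had a row and 40 were tested, and 9 rose and 9 fell, beside the 8.28% and 10.4% of all tested genes given above. The lists were chosen with earlier results of these data known, so these counts are no test of the lists. Without TAC replicate 3, 8 rose and 8 fell, and genes that the low-count filter then left out count as not called. Pdgfc was called in all 16 alternatives that tested it. Across the 40 tested partner genes the median log2 fold change was 0.04, beside 0.01 over all tested genes.

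**Figure D3:**
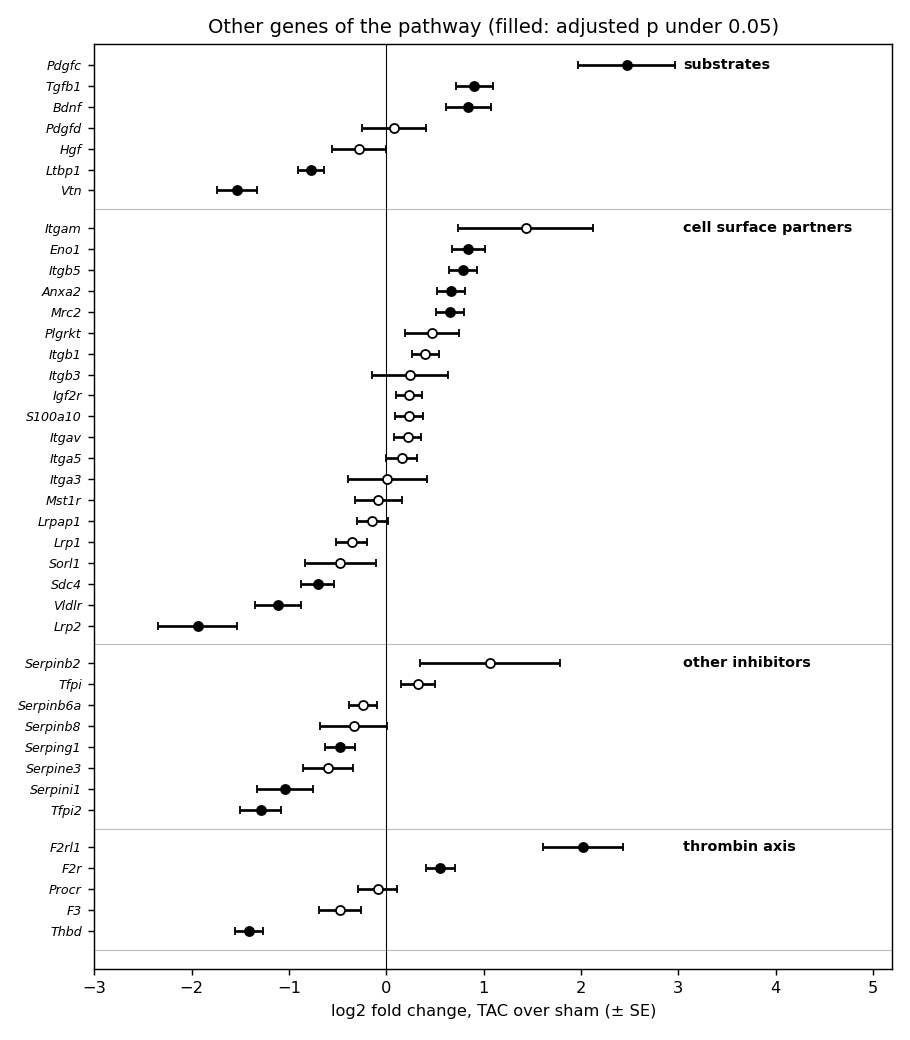
Log2 fold change of TAC over sham (x axis, ± SE from edgeR) for the 40 tested partner genes, grouped by list and ordered by value, with filled points for an adjusted p under 0.05. Filled points lie on both sides of 0 in each list except the other inhibitors, where the 3 filled points are all below 0.

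The mRNA of the activators' substrate was not detected in these libraries, and the protein, which circulates, was not measured. Plg, which encodes plasminogen, had no read in any of the 6 libraries, and 3 reads would be from 0.699 to 1.55 CPM in a single library. The fibrinogen chains Fga and Fgg had 1 read each over all libraries and Fgb had none. Of 7 tested genes for proteins that the activators or plasmin cut, release or bind, 3 rose and 2 fell, with a median log2 fold change of 0.08. Pdgfc, a growth factor that tissue-type activator cleaves to its active form, had 3, 2 and 2 reads in sham and 22, 20 and 30 in TAC replicates 1, 2 and 3. Its log2 fold change was 2.47 ± 0.50 (SE, edgeR adjusted p of 0.00255) and is imprecise because the sham reads are so few. Tgfb1, whose latent form plasmin can activate, rose by 0.90 ± 0.19 (adjusted p of 0.00366), from 25.1 ± 4.30 to 47.1 ± 7.55 CPM (SD, n = 3). Bdnf, a neurotrophin whose precursor plasmin cleaves, rose by 0.84 ± 0.24 but did not pass without sham replicate 1 (0.53, adjusted p of 0.0703). It also did not pass by limma on log2(RPKM + 1) or log2(RPKM + 0.1), with adjusted p of 0.0615 and 0.0687. Ltbp1, which tethers latent TGF-beta to the matrix, fell by 0.77 ± 0.13 on the log2 scale. Vtn, the matrix protein vitronectin, had a log2 fold change of -1.53 ± 0.21. Vtn is also a pericyte marker, and the summed pericyte markers, Vtn among them, were at 2664 to 4161 CPM in sham and 979 to 2254 CPM in TAC; their part in its fall was not tested. Hgf and Pdgfd, growth factors activated by such proteases, had log2 fold changes of -0.28 ± 0.28 and 0.08 ± 0.33 and did not pass.

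Of 20 tested genes for proteins that dock plasminogen, signal with the urokinase receptor or clear inhibitor complexes, 4 rose and 3 fell, with a median log2 fold change of 0.22. The risers included the plasminogen-binding surface proteins Anxa2, at 0.67 ± 0.15 (SE, edgeR adjusted p of 0.00434), and Eno1, at 0.84 ± 0.17. Mrc2, the collagen receptor that associates with the urokinase receptor, rose by 0.66 ± 0.15, from 251 ± 40.0 to 396 ± 40.9 CPM (SD, n = 3). The integrin subunit Itgb5 rose by 0.79 ± 0.14, and Itgb1, another integrin subunit, was at 0.40 ± 0.14 and did not pass (adjusted p of 0.0570). It passed in 7 of 18 alternatives, among them DESeq2 (0.41, adjusted p of 0.0283) and the fit without TAC replicate 1 (0.46, adjusted p of 0.0459). S100a10, the partner of annexin A2, was at 0.23 ± 0.14 and did not pass. The genes of this list that fell were the endocytic receptors Lrp2 (-1.94 ± 0.40) and Vldlr (-1.12 ± 0.24) and the heparan sulfate proteoglycan Sdc4 (-0.71 ± 0.17). Sdc4 did not pass without sham replicate 3 (-0.49, adjusted p of 0.0578). Lrp2 had 25, 54 and 88 reads in sham and 10, 47 and 24 in TAC replicates 1, 2 and 3. It did not pass by limma on log2(RPKM + 1) (-0.90, adjusted p of 0.0531) or log2(RPKM + 0.1) (-1.74, adjusted p of 0.0565). Lrp1, the main clearance receptor for complexes of Serpine2, is named here after its values were seen. It had 2952 ± 458 CPM in sham and 2304 ± 246 CPM in TAC, overlapped between the groups and did not pass (-0.36 ± 0.16, adjusted p of 0.137), but passed without sham replicate 1 (-0.48, adjusted p of 0.0467).

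Among 8 tested genes for other inhibitors, none rose and 3 fell (2 without TAC replicate 3), with a median log2 fold change of -0.40. Tfpi2, a Kunitz inhibitor of plasmin, fell with a log2 fold change of -1.29 ± 0.21, from 34.7 ± 7.39 to 14.1 ± 0.541 CPM (SD, n = 3). Serpini1, neuroserpin, an inhibitor of tissue-type activator known mainly from neurons, fell with -1.04 ± 0.29. It did not pass without sham replicate 3 (-0.62, adjusted p of 0.140) or without TAC replicate 3 (-0.79, adjusted p of 0.0539). Nor did it pass by the robust edgeR fit (adjusted p of 0.0713). By limma on log2(RPKM + 1) and log2(RPKM + 0.1) its adjusted p was 0.0614 and 0.0660. Schwann cell and neuronal markers also summed to less in TAC, at 42.7 to 56.1 CPM against 87.5 to 105 CPM in sham, and their part in the fall of Serpini1 was not tested. Serping1, the C1 inhibitor, fell with -0.47 ± 0.15 (adjusted p of 0.0428). It did not pass without sham replicate 1, 2 or 3 or without TAC replicate 2, with adjusted p of 0.0967, 0.0992, 0.0600 and 0.201 in that order. Under upper quartile scaling the edgeR adjusted p of Serping1 was 0.0619. By limma on log2(RPKM + 1) and log2(RPKM + 0.1) it was 0.0547 and 0.0525. Serpinb6a was at -0.24 ± 0.14 and Tfpi, the tissue factor pathway inhibitor, at 0.32 ± 0.17, and neither passed. The plasmin inhibitor Serpinf2 had 1 read in all.

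Serpine2 is also an inhibitor of thrombin, and the genes listed for thrombin and the tissue factor axis moved in both directions. Of 8 listed, 5 were tested, and 2 rose and 1 fell, with a median log2 fold change of -0.09. F2r, the thrombin receptor PAR1, had 429, 491 and 605 CPM in sham replicates 1, 2 and 3 and 825, 709 and 703 CPM in TAC replicates 1, 2 and 3. All TAC libraries lay above all sham libraries, and its log2 fold change was 0.55 ± 0.15 (SE, edgeR adjusted p of 0.0167). It did not pass without sham replicate 1 (0.44, adjusted p of 0.0657) or without sham replicate 2 (0.52, adjusted p of 0.0885). F2rl1, the protease receptor PAR2, had 6, 25 and 35 reads in sham and 101, 135 and 245 reads in TAC replicates 1, 2 and 3. Its log2 fold change was 2.02 ± 0.41 (adjusted p of 0.00269), with adjusted p of 0.0564 by DESeq2 and 0.0673 by the robust edgeR fit. Thbd, thrombomodulin, which turns thrombin from clotting to protein C activation, fell with -1.41 ± 0.15 (adjusted p of 5.98e-06), from 1640 ± 206 to 616 ± 38.1 CPM (SD, n = 3). F3, tissue factor, was at -0.48 ± 0.21 and Procr, the protein C receptor, at -0.09 ± 0.20, and neither passed. F2, which encodes prothrombin, had at most 4 reads in any library.

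Thy1+HE- libraries were rich in fibroblast transcripts, and the 9 fibroblast markers summed to 21857 to 30465 CPM in sham and 33018 to 40429 CPM in TAC. The members of that list went both ways: Col1a1, Col1a2 and Col3a1 rose, while Pdgfra (-0.80), Dcn (-0.67), Tcf21 (-0.98) and Ddr2 (-0.78, log2 fold changes) fell. Endothelial cells are a known source of Plat, and their 11 markers summed to 218 to 290 CPM in sham and 169 to 191 CPM in TAC. Tek lay between 189 and 198 CPM in sham and between 85.4 and 102 CPM in TAC, and the other 10 markers summed to 28.5, 66.3 and 91.8 CPM in sham replicates 1, 2 and 3 and to 71.2, 66.1 and 106 CPM after TAC in the same order. Of the 6 tested endothelial markers 1 rose and 2 fell. Erg rose (log2 fold change 2.97, edgeR adjusted p of 5.25e-05), while Tek (-1.03) and Esam1 (-1.02, adjusted p of 0.0470) fell. Kdr (-0.86), Pecam1 (0.52) and Cdh5 (0.87) did not pass. Emcn, which was not tested, had 0, 0 and 6 reads in sham and 14, 10 and 16 in TAC. Cldn5 had 0, 1 and 0 reads in sham and 5, 4 and 0 in TAC. Neutrophil and mast cell markers summed to at most 5.12 CPM and lymphocyte markers to at most 4.51 CPM in any library. The summed pericyte, Schwann cell and epicardial markers were lower in TAC and the summed macrophage markers higher. Each sum had no overlap between the groups, as for Serpine2. Single genes weigh heavily in some sums. Muc16, an epicardial marker, had 145, 176 and 291 CPM in sham and 41.1, 73.8 and 69.8 CPM in TAC replicates 1 to 3. Lyzs gave 121 of the 226 CPM of macrophage markers in TAC replicate 3. Of tested markers, 3 of 8 pericyte, 5 of 6 Schwann cell and 3 of 7 epicardial ones fell. Of the macrophage ones, 4 of 7 rose. The part of any of these cell types in the values of Plat, Plau and Serpine2 was not tested. Reads on gene rows ranged from 1909337 to 2056097 per sham library and from 3351479 to 4207312 per TAC library, which gives genes with few reads less precision in sham. They made up 34.1%, 30.7% and 25.4% of the matched reads in sham replicates 1, 2 and 3. In TAC the shares were 39.0%, 43.2% and 38.7% in the same order, with no overlap between the groups. The part of this difference in the fold changes was not tested, and it cannot be told apart from the operation.

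**Figure D4:**
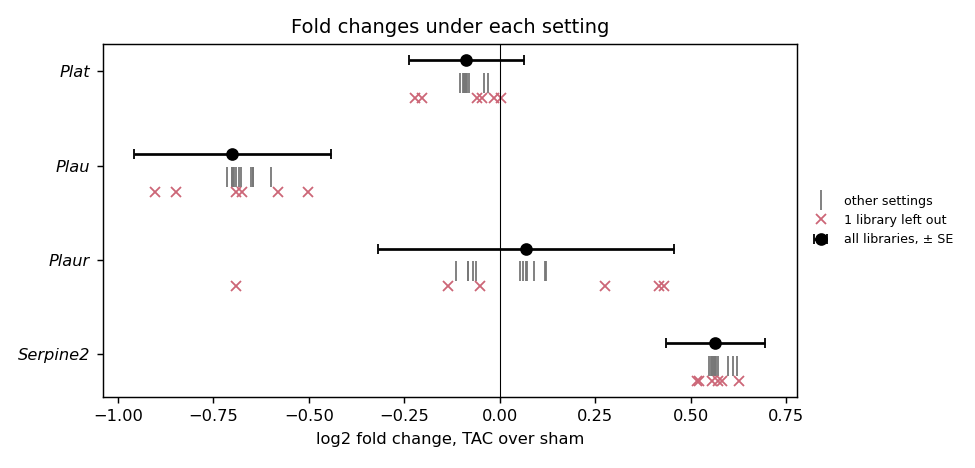
Log2 fold change of TAC over sham (x axis) for each of the 4 genes, with black points for all libraries (± SE), grey ticks for other scalings, filters and tests, and red crosses for fits with 1 library left out. Serpine2 stays between 0.52 and 0.63 and Plau below 0, while Plaur ranges from -0.69 to 0.43.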

How the data were processed

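The reports hold read counts per gene that NextGENe 2.3.3 produced for the authors, per the file headers. They also hold RPKM, which the authors computed per kilobase of row length, and per-base coverage, deposited in the same files and not used here. The submitters' processing notes name mm10 and Partek 6.6 without a role. The handling of reads with several matches is not given in these sources.

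Counts were summed by symbol and filtered with filterByExpr, which left 12612 genes. They were scaled by TMM and compared with the quasi-likelihood test of edgeR 4.0.16 in R 4.3.3 (all 6 libraries, no covariate, two-sided, Benjamini-Hochberg over all tested genes). Standard errors came from the F statistic. Alternatives used DESeq2 1.42.0, limma 3.58.1 (voom, and log2 RPKM with pseudocounts of 1 and 0.1), other scalings and filters, a replicate block and 1 library left out. Thinning to 1909337 reads was chosen after seeing the data. In simulated libraries with 12455 genes tested, 73 of 97 genes changed by 1 on the log2 scale and 95 of 95 changed by 2 were recovered, with 9 false calls. The simulation gave every gene the same spread beyond counting and changed far fewer genes than were called here. These rates therefore need not hold for the real libraries.

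Members and lists were chosen with earlier results of these data known. The text names all members, the list genes past the threshold and the 2 highest others of each list, and for each member the 3 genes of at least 5 CPM with the highest r. Some genes of the lists are not reported here and were left out of the list counts. Older symbols were matched through RefSeq synonyms. Plots used matplotlib 3.10.9.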

Additional observations from a re-analysis of the deposited data

How the results depend on the processing

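Serpine2 kept its direction and its call in all 18 alternatives, with log2 fold changes from 0.52 to 0.63 when 1 library was left out. Plau stayed lower in TAC in all 18 and passed in 2 of them, with values from -0.90 to -0.50 when 1 library was left out. Plat passed in none, and its log2 fold change ranged from -0.22 to 0.0036 when 1 library was left out, changing sign without TAC replicate 2. Plaur passed in none and had no stable direction. Its log2 fold change was -0.12 by limma voom, -0.071 and -0.083 on log2 RPKM with pseudocounts of 1 and 0.1, -0.083 after thinning, and from -0.69 to 0.43 when 1 library was left out; the cause was not tested. The count of called genes was 2353 and ranged from 1454 (without sham replicate 2) to 2261 when 1 library was left out. The called genes were 1044 higher and 1309 lower, against 1579 and 1307 without the low-count filter and 1240 and 1139 under upper quartile scaling. The inhibitor-to-activator ratio differed by 0.70 on the log2 scale and by 0.60 to 0.89 when 1 library was left out. It does not depend on scaling by construction.

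The labels tie libraries of the same number by nothing else, and their deviations from the group means did not all vary together, with correlations of 0.0824, 0.0251 and -0.0862 for numbers 1, 2 and 3. With the replicate block the log2 fold changes were -0.09 for Plat, -0.69 for Plau, -0.064 for Plaur and 0.56 for Serpine2, and the block changed no call of a member. It gave 2346 called genes, and among the named partner genes Itgb1 passed with it, with an edgeR adjusted p of 0.0420. Depth limits Plau most, with 29 reads in its lowest library.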
